A study of Mus musculus with 6 samples.

Results

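The genes described here are the receptor chains through which natural killer (NK) cells respond to interleukin-12 (IL-12), IL-18, IL-27 and interferon gamma, together with Stat4, the transcription factor that IL-12 activates. They are 8 genes chosen by name, Il12rb1, Il12rb2, Il27ra, Il18r1, Il18rap, Ifngr1, Ifngr2 and Stat4, out of 26332 genes in the deposited table, and all 8 were found in it by Entrez ID. Their transcripts were counted by RNA-seq in thymic NK cells, with 1 library for each C57BL/6 mouse: 2 mice with a knockout (KO) of Tcf7 and 4 wild-type (WT) mice. The product of Tcf7, TCF-1, is a DNA-binding protein needed for the development of T cells and other lymphocytes. The sorted cells lacked TCRbeta, CD3, CD8 and binding of CD1d tetramer and carried NK1.1 and NKp46. Libraries KO 1, WT 1 and WT 3 came from mice labelled male and KO 2, WT 2 and WT 4 from mice labelled female. The sources used here do not give the age of the mice or the kind of Tcf7 allele.

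IL-12 binds a receptor made of IL-12Rβ1, encoded by Il12rb1, and IL-12Rβ2, encoded by Il12rb2, whose kinases TYK2 and JAK2 phosphorylate STAT4. IL-18 binds the chain encoded by Il18r1, recruits the accessory chain encoded by Il18rap, and signals through the adaptor MyD88. In NK cells both cytokines together strongly induce interferon gamma, which in turn acts through a receptor of a ligand-binding chain, IFNGR1, and a signalling chain, IFNGR2. IL-27 uses the chain encoded by Il27ra together with gp130.

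Libraries held 16418910 to 31155303 counts in total. Tcf7 itself had 268 and 452 CPM (counts scaled to library size, with TMM factors) in KO 1 and KO 2, against 811 to 947 CPM in the 4 WT libraries, so transcript of the gene was still counted in the KO. The summed level of 10 NK cell markers was 11996 and 9127 CPM in KO 1 and KO 2, against 11807 to 12266 CPM in WT, with Eomes and Klrb1c lower in KO and 0 higher by edgeR. At an unadjusted p under 0.05, 6 were lower and 1 higher, and DESeq2 called 6 lower and 1 higher and limma voom 4 lower and 0 higher. Markers of other cells had higher sums in KO 1, and all but the B cell list also in KO 2: the sums in KO 1, KO 2 and WT were 1701, 2218 and 386 to 591 CPM for alpha-beta T cells (6 of 12 markers higher), 629, 472 and 187 to 352 CPM for gamma-delta T cells (4 of 6), and 1836, 3258 and 669 to 1126 CPM for ILC1 (6 of 7). They were 200.2, 274 and 123 to 142 CPM for ILC2 or ILC3 (4 of 10, with 7 tested), with Il17a and Il22 at 0 counts in all 6 libraries, and 562, 418 and 376 to 426 CPM for B cells (6 of 8). They were 357, 318 and 94.0 to 104 CPM for plasma cells (4 of 5), 412, 407 and 325 to 401 CPM for myeloid cells (3 of 10), 1350.1, 1131 and 900.15 to 996 CPM for dendritic cells (4 of 9), and 272, 448 and 111 to 119 CPM for stroma or epithelium (4 of 9, with 6 tested). Most of this last sum was the 1 gene Pecam1, at 245 and 402 CPM in KO 1 and KO 2, against 103 to 113 CPM in WT.

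Of the 8 genes, 2 rose in KO (Il12rb1 and Ifngr2), 1 fell (Stat4) and 5 did not pass the test (Il12rb2, Il18r1, Il18rap, Il27ra and Ifngr1). The test was edgeR's quasi-likelihood test over 13652 genes with sex as an additive term, and a gene was called at a Benjamini-Hochberg adjusted p under 0.05. Of all tested genes 13.7% were called, 8.13% as higher and 5.58% as lower. These are 1110 higher and 762 lower calls, 59.3% higher, or 1336 and 523, 71.9% higher, when only library size is used for scaling. The KO and WT libraries did not overlap for 4 of the 8 genes, with Il12rb1, Ifngr2 and Il27ra above and Stat4 below, while 39.3% of all tested genes did not overlap, 20.5% above and 18.8% below. The median log2 fold change (KO minus WT) of the 8 genes was 0.06, beside 0.02 over all tested genes. All 8 passed the filter on low counts, Ifngr2 with 88 and 385 counts in KO 1 and KO 2 and 4, 15, 3 and 59 in WT 1 to WT 4. In bulk RNA, fewer cells of a type and less RNA per cell cannot be told apart.

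**Figure D1:**
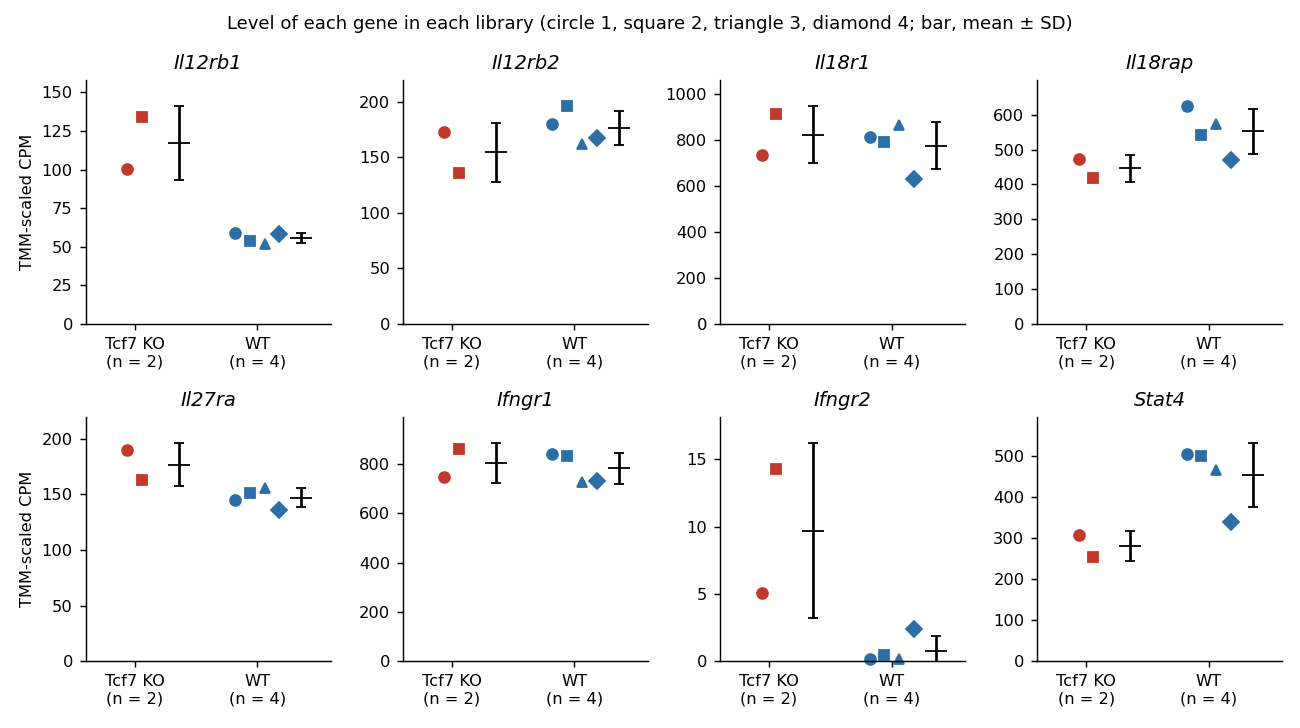
TMM-scaled CPM (y axis, from 0, a scale of its own for each gene) of the 8 genes in each of 2 Tcf7 KO (red) and 4 WT (blue) libraries, with the mean ± SD as a black bar. Il12rb1 and Ifngr2 lie above and Stat4 below all WT libraries in both KO libraries, while Il12rb2, Il18r1, Il18rap and Ifngr1 overlap.

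Levels of different genes are compared as CPM per kilobase of the gene length in the deposited table. In WT, Ifngr1 stood first at 373 ± 30.0 CPM per kilobase (SD, n = 4), followed by Il18rap at 222 ± 25.95, Il18r1 at 162 ± 21.1, Stat4 at 152 ± 26.1, Il12rb2 at 59.8 ± 5.15, Il27ra at 55.3 ± 3.24, Il12rb1 at 19.4 ± 1.21 and Ifngr2 at 0.389 ± 0.513. The ranges of the WT libraries overlapped between Il18r1 and Stat4 and between Il12rb2 and Il27ra, and between no other neighbours in this order. In KO the mean levels were 382 ± 38.3 CPM per kilobase for Ifngr1 (SD, n = 2), 179 ± 15.6 for Il18rap, 172 ± 26.0 for Il18r1, 94.5 ± 12.5 for Stat4, 66.5 ± 7.24 for Il27ra, 52.4 ± 8.94 for Il12rb2, 40.8 ± 8.36 for Il12rb1 and 4.69 ± 3.14 for Ifngr2. Il27ra and Il12rb2 thus had the opposite order in KO, where their ranges did not overlap, while in WT they did. In KO the ranges of Il18rap and Il18r1 overlapped, and so did those of Il12rb2 and Il12rb1. The IL-18 receptor chains were counted at a higher level than the IL-12 receptor chains in every library of both genotypes.

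**Figure D2:**
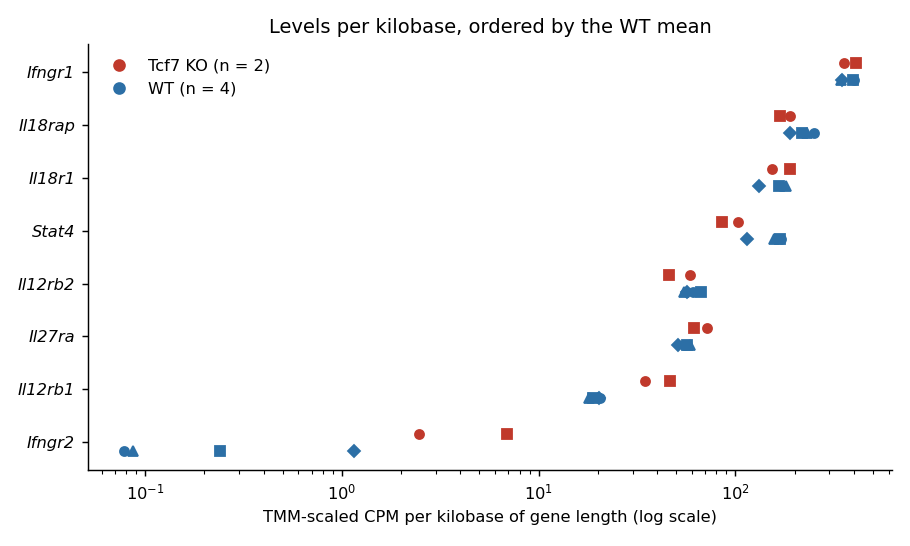
TMM-scaled CPM per kilobase of gene length (x axis, log scale) of the 8 genes in each Tcf7 KO (red, n = 2) and WT (blue, n = 4) library, ordered by the WT mean. Ifngr1 was highest and Ifngr2 lowest in all 6 libraries, with Ifngr2 between 0.0782 and 1.15 in WT.

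Il12rb1 (Entrez gene 16161, GRCm38 chromosome 8, 70808360 to 70823542) encodes the chain that the receptors for IL-12 and IL-23 share. It had 100.3 and 134 CPM in KO 1 and KO 2, against 59.1, 54.0, 51.7 and 58.1 CPM in WT 1 to WT 4. Both KO libraries lay far above the narrow WT range. The means were 117 ± 24.0 CPM (SD, n = 2) in KO and 55.7 ± 3.49 CPM (SD, n = 4) in WT, with a log2 fold change of 1.06 (SE 0.13, edgeR adjusted p = 2.58e-03). The call held under all 17 alternative settings, in which the log2 fold change lay between 0.85 and 1.25. Neither neighbour was called by edgeR: Mast3 had 193 ± 8.63 CPM in KO and 234 ± 18.7 CPM in WT (adjusted p = 0.134), and Arrdc2 had 15.7 ± 0.948 CPM in KO and 10.7 ± 2.85 CPM in WT (0.136). Within each sex the log2 fold change of Il12rb1 was 0.85 for the male and 1.25 for the female KO library on the scale of log2(CPM + 1).

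Il12rb2 (Entrez gene 16162, chromosome 6, 67285986 to 67376293), which encodes the chain that recruits STAT4 and is particular to the IL-12 receptor among these receptors, had 173 and 136 CPM in KO 1 and KO 2. In WT 1 to WT 4 it had 179.6, 196, 162 and 167 CPM. KO 1 lay inside the range of the WT libraries and KO 2 below all of them. The log2 fold change was -0.20 (95% interval -0.51 to 0.12, edgeR adjusted p = 0.385). Its annotated span shares 3317 bases with Serbp1, a gene of an RNA-binding protein counted at 706.55 ± 14.8 CPM in KO and 787 ± 32.6 CPM in WT (edgeR adjusted p = 0.242), and without strand, reads from the shared part cannot be assigned to either gene with certainty.

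Il27ra (Entrez gene 50931, chromosome 8, 84030286 to 84042600), the specific chain of the IL-27 receptor, had 190.4 and 163 CPM in KO 1 and KO 2, against 145, 151, 156 and 136 CPM in WT 1 to WT 4. Both KO libraries were above all WT libraries, by a small margin. The log2 fold change of 0.26 (95% interval 0.02 to 0.50) did not pass the threshold (edgeR adjusted p = 0.136). Its span shares 386 bases with Palm3, which was higher in KO at 5.66 ± 1.50 CPM against 1.20 ± 0.31 CPM in WT (log2 fold change 2.23, edgeR adjusted p = 0.0169). The adjacent relaxin gene Rln3, 467 bases away, was also higher, at 15.8 ± 4.71 CPM in KO and 4.06 ± 0.97 CPM in WT (1.94, edgeR adjusted p = 6.81e-03). Their share in the reads of Il27ra was not tested. The call of Palm3 was lost without WT 1, WT 3, KO 1 or KO 2 and with the replicate number as a block (highest adjusted p = 0.163, without KO 1), and that of Rln3 without KO 2 (0.0738). On the other side of Palm3, Misp3 had 2.91 ± 1.08 CPM in KO and 0.563 ± 0.397 CPM in WT and was not called by edgeR (adjusted p = 0.0875), but was called higher with DESeq2 (0.0362), with limma voom (0.0271) and in edgeR with no expression filter (0.0456).

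The ratio of Il12rb1 to Il12rb2 inside a library does not depend on scaling between libraries. It was 0.595 in KO 1 and 1.01 in KO 2, against 0.338, 0.282, 0.328 and 0.357 in WT 1 to WT 4. In KO 2 both chains were therefore counted at nearly equal levels per kilobase, while in each WT library Il12rb2 was well above Il12rb1. The mean log2 ratio was -0.36 in KO and -1.62 in WT. An exact two-sided permutation test over the 6 libraries, which doubles the smaller tail, gave p = 0.133. This is the smallest p that this form of the test allows with 2 against 4 libraries.

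**Figure D3:**
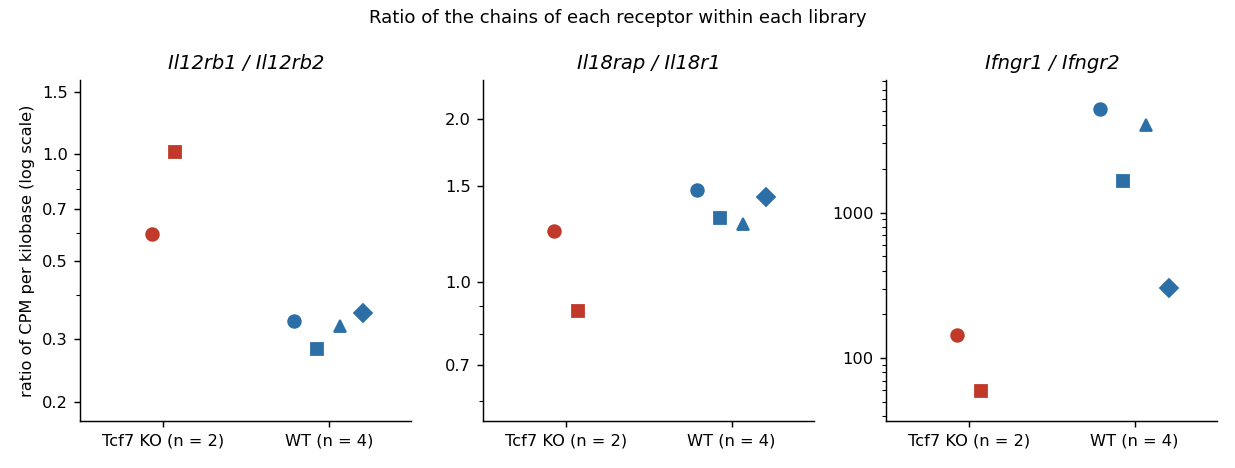
Ratio of CPM per kilobase of gene length between chains of the IL-12, IL-18 and interferon gamma receptors (y axes, log scale) in each Tcf7 KO (red, n = 2) and WT (blue, n = 4) library. The KO libraries lie above WT for Il12rb1 over Il12rb2 and below WT for the other ratios.

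Il18r1 (Entrez gene 16182, chromosome 1, 40465552 to 40500854), the ligand-binding chain of the IL-18 receptor, had 735 and 911 CPM in KO 1 and KO 2, against 813, 792, 863 and 630.4 CPM in WT 1 to WT 4. KO 2 was above all WT libraries, and KO 1 was below 3 of the 4. The log2 fold change was 0.09 (95% interval -0.25 to 0.43, edgeR adjusted p = 0.723). Il18rap (Entrez gene 16174, chromosome 1, 40515362 to 40551707), the accessory chain, lies 14508 bases further along and had 473 and 419 CPM in KO 1 and KO 2. In WT 1 to WT 4 it had 625, 541, 574 and 471 CPM. KO 2 was below all WT libraries, and KO 1 was just above WT 4. The log2 fold change was -0.31 (95% interval -0.53 to -0.08), which did not pass the threshold (edgeR adjusted p = 0.0772) but did with DESeq2 (adjusted p = 0.0152) and in edgeR without WT 4 (0.0419). The ratio of Il18rap to Il18r1 per kilobase was 1.24 and 0.884 in KO 1 and KO 2, against 1.48, 1.31, 1.28 and 1.44 in WT 1 to WT 4, and KO 2 was the one library in which Il18r1 was the higher of both (same exact two-sided permutation test, p = 0.133, again the smallest that it allows).

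Next to the IL-18 receptor genes on chromosome 1 lie a related receptor gene and an exchanger gene. Il1rl1, the IL-33 receptor gene, lies 134 bases before Il18r1 and was low, at 2.78 ± 0.09 CPM in KO and 1.35 ± 0.34 CPM in WT (edgeR adjusted p = 0.206). On the other side of Il18rap, Slc9a4, a sodium-proton exchanger gene, was at 0 counts in the WT libraries and KO 1 and was not tested. Both neighbours were thus counted at a far lower CPM than either IL-18 receptor gene.

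Ifngr1 (Entrez gene 15979, chromosome 10, 19591949 to 19610229), the ligand-binding chain of the interferon gamma receptor, had 746 and 859.5 CPM in KO 1 and KO 2, against 841, 832, 726 and 730.15 CPM in WT 1 to WT 4. The groups overlapped. Its log2 fold change was 0.03 (95% interval -0.21 to 0.28, edgeR adjusted p = 0.862), and its sign changed under 4 of 17 alternatives.

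Ifngr2 (Entrez gene 15980, chromosome 16, 91547059 to 91564007), the signalling chain, had 5.10 and 14.3 CPM in KO 1 and KO 2. In WT 1 to WT 4 it had 0.162, 0.494, 0.180 and 2.38 CPM. These values stood on 88 and 385 counts in KO 1 and KO 2 and on 4, 15, 3 and 59 counts in WT 1 to WT 4, so that WT 1 and WT 3 lay about at the floor of 3 counts. Both KO libraries were above all WT libraries, and WT 4 was well above the other WT libraries. The means were 9.70 ± 6.50 CPM (SD, n = 2) in KO and 0.80 ± 1.06 CPM (SD, n = 4) in WT. The log2 fold change was 3.98 (SE 0.65, 95% interval 2.48 to 5.49, edgeR adjusted p = 8.11e-03). Removing KO 1 ended the call (3.32, adjusted p = 0.0534), and the log2 fold change was 4.85 without WT 4, 4.86 without KO 2 and between 3.32 and 4.88 over the 17 alternatives.

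The excess of Ifngr1 over Ifngr2 in CPM per kilobase was 144 in KO 1 (95% counting interval 117 to 179.97) and 59.3 in KO 2 (53.6 to 65.7). It was 5125 in WT 1 (2001 to 18810), 1660 in WT 2 (1006 to 2966), 3979 in WT 3 (1361 to 19297) and 302.3 in WT 4 (234 to 397). The exact Clopper-Pearson intervals cover counting error only. They treat each read as an independent draw, which amplified reads are not, so they may be too narrow. The signalling chain was thus the scarce one in every library, and least so in KO 2.

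Of the 10 myeloid markers, 3 were called higher in KO by edgeR, namely the complement genes C1qa and C1qb and the transcription factor gene Spi1. The summed level of the 10 markers was 412 and 407 CPM in KO 1 and KO 2, against 325 to 401 CPM in WT. Most of that sum was Itgam, an integrin gene that NK cells also express, at 347 and 280.1 CPM in KO 1 and KO 2, against 319 to 368 CPM in WT. The other markers were low and did not all share 1 order of libraries, but most were higher in KO 2 than in KO 1. Lyz2, the lysozyme gene, had 36.4 and 70.3 CPM in KO 1 and KO 2, against 0.040, 0.330, 6.48 and 14.7 CPM in WT 1 to WT 4, with KO 2 highest and WT 4 the highest WT library, as for Ifngr2. Csf1r, C1qa, Spi1 and Fcgr1 also had KO 2 highest, KO 1 next and WT 4 the highest WT library. Csf1r had 4.23 and 12.3 CPM in KO 1 and KO 2, and Spi1 had 6.78 and 12.6 CPM. C1qb and Cd68 were also higher in KO 2 than in KO 1, but not in the same full order. Adgre1 and Csf3r were higher in KO 1 than in KO 2. Adgre1, a macrophage gene, had 2.78 and 2.56 CPM in KO 1 and KO 2, against 0 to 0.480 CPM in WT, and Csf3r, a neutrophil gene, had 3.25 and 1.86 CPM in KO 1 and KO 2, against 0 to 1.82 CPM in WT. Lyz2, Adgre1 and Csf3r were not called by edgeR (adjusted p = 0.105, 0.0823 and 0.242), nor were Csf1r, Fcgr1 and Cd68 (0.121, 0.0665 and 0.810). The order of KO 2, KO 1 and then WT 4 was not particular to the myeloid list. Among the alpha-beta T cell markers, Trac, Trbc2, Cd4, Cd5 and Lat also had it. Cd4 had 17.7 and 71.6 CPM in KO 1 and KO 2, against 0.162 to 15.6 CPM in WT. Trbc1, Cd3d, Cd3e, Cd3g, Cd8a, Cd8b1 and Themis had other orders. Apart from the 3 called myeloid genes, the markers named here were chosen for mention after their values were seen. The part of myeloid cells, T cells or other cells in the level of Ifngr2 was not tested. The genes on either side of Ifngr2 did not pass the test: the type I interferon receptor gene Ifnar1 had 198 ± 38.7 CPM in KO and 202 ± 23.0 CPM in WT (edgeR adjusted p = 0.866), and Tmem50b 28.0 ± 7.33 CPM in KO and 21.96 ± 1.02 CPM in WT (0.224).

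Stat4 (Entrez gene 20849, chromosome 1, 51987106 to 52107189), the transcription factor downstream of IL-12, had 308 and 255 CPM in KO 1 and KO 2, against 507, 501, 468 and 340.2 CPM in WT 1 to WT 4. Both KO libraries were below all WT libraries, and WT 4 was the lowest WT library. The means were 282 ± 37.2 CPM (SD, n = 2) in KO and 454 ± 77.9 CPM (SD, n = 4) in WT, with a log2 fold change of -0.69 (SE 0.16, 95% interval -1.06 to -0.33, edgeR adjusted p = 0.0277). Within each sex the difference was -0.66 for the male and -0.69 for the female KO library on the scale of log2(CPM + 1). The call was lost without WT 1 (adjusted p = 0.0836), WT 3 (0.0713), KO 1 (0.129) or KO 2 (0.139), while the log2 fold change stayed between -0.85 and -0.55 under the 17 alternatives. Gm3940, which shares 489 bases with the span of Stat4, had 1.85 ± 0.738 CPM in KO and 3.21 ± 0.491 CPM in WT (adjusted p = 0.290).

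**Figure D4:**
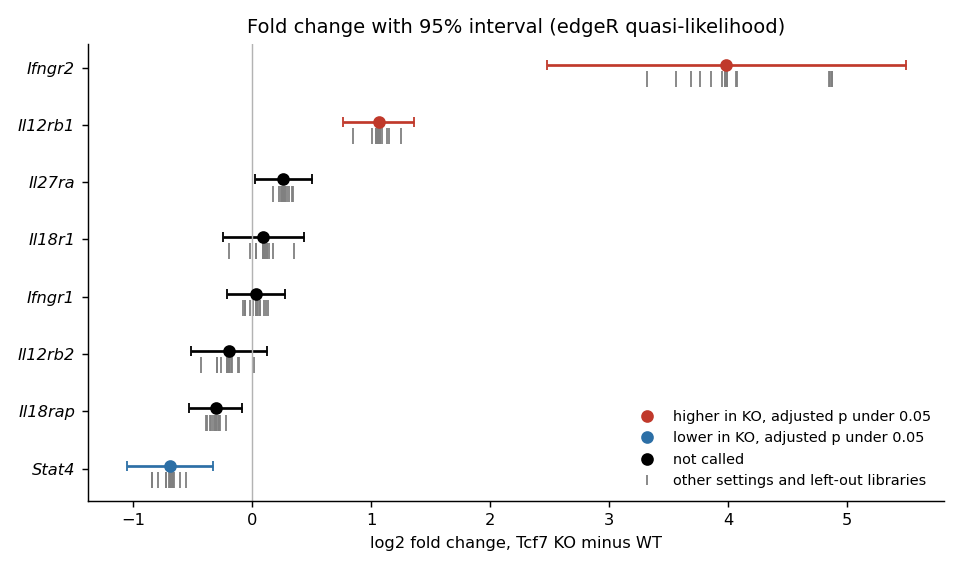
Log2 fold change, Tcf7 KO minus WT (x axis), of the 8 genes with the 95% interval of the edgeR test, coloured where called, and grey ticks for the 17 alternative settings and left-out libraries. Ifngr2 at 3.98 and Il12rb1 at 1.06 are called higher and Stat4 at -0.69 lower, and the intervals of Il18r1, Ifngr1 and Il12rb2 include 0.

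Promoter sequence was read for those of the 8 genes that had it, since TCF-1 binds DNA at the letters CTTTG followed by A or T. RefSeq windows of GRCm38.p6, from 250 bases before to 50 bases after an annotated start, were given for 6 of the 8 genes, in 9 windows, and not for Il12rb1 or Il27ra. Of these 9 windows, 3 held CTTTGA or CTTTGT on either strand, which were both windows of Stat4 and the window of Il18rap. Of all 32851 windows of this length in the table, 31.2% held at least 1 match. The windows of Stat4, which fell, and of Ifngr2, which rose, are shown on the strand of the gene, with matches in capitals. The match in the first Stat4 window reads on the opposite strand and begins at position -49, counted from 0 at the annotated start, and that in the second window begins at -130.
Stat4, first start, chr1:51986898-51987197, plus strand: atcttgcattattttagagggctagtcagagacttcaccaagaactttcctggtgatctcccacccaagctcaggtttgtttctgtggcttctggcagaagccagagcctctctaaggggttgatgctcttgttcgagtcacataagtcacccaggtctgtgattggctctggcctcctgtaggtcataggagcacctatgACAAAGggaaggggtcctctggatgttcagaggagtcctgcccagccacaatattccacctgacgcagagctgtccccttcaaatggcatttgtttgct
Stat4, second start, chr1:52007990-52008289, plus strand: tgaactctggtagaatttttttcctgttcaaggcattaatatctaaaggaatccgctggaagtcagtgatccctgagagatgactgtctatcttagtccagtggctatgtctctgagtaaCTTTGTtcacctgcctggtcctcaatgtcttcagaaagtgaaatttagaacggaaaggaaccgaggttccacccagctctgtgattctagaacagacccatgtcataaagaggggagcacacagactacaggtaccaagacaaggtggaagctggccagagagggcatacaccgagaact
Ifngr2, chr16:91546809-91547108, plus strand: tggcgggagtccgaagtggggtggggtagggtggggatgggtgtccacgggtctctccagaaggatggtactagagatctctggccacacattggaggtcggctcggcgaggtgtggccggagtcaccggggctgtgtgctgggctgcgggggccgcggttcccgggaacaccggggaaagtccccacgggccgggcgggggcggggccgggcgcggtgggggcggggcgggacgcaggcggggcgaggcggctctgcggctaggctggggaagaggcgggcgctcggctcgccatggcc
The Ifngr2 window held no match. The STAT-binding letters TTCNNNGAA, which read the same on both strands apart from N, were found in the window of Il12rb2 and in the third window of Il18r1 and in none of the windows shown, against 8.3% of all windows. A match describes the letters of the window, and binding was not measured.

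The genes around these receptors were described from 6 lists of pathway genes. Among 8 ligands and decoys, 4 were tested and 1 rose (25%, beside 13.7% of all tested genes). This was Il18bp, which encodes the soluble decoy of IL-18. It had 5.10 and 7.91 CPM in KO 1 and KO 2, against 0.77, 1.68, 1.74 and 1.01 CPM in WT 1 to WT 4, with both KO libraries above all WT libraries (log2 fold change 2.30, SE 0.46, edgeR adjusted p = 0.0177). Removing KO 1 (adjusted p = 0.0681) or KO 2 (0.142) ended the call. Ifng, the interferon gamma gene, had 99.2 and 49.1 CPM in KO 1 and KO 2, against 71.2, 63.3, 121 and 191 CPM in WT 1 to WT 4. Its groups overlapped, and it was not called (log2 fold change -0.61, 95% interval -1.77 to 0.56, edgeR adjusted p = 0.466). The cytokine genes Il12b, Il23a, Il27 and Ebi3 were too low to be tested.

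Of 16 related receptor chains, 14 were tested, of which 4 rose and 1 fell (35.7%, beside 13.7% of all tested genes), with a median log2 fold change of 0.28. The 5 calls became 2 without WT 1, WT 2, KO 1 or KO 2, 3 without WT 3 and 8 without WT 4, and DESeq2 called 5 higher and 3 lower. Il1r1, the IL-1 receptor gene, had 9.74 and 37.4 CPM in KO 1 and KO 2, against 0.08 to 0.97 CPM in WT (log2 fold change 5.47, edgeR adjusted p = 4.27e-04). Il23r, whose product pairs with the product of Il12rb1 in the IL-23 receptor, had 1.39 and 3.01 CPM in KO 1 and KO 2, against 0, 0.033, 0.12 and 0.24 CPM in WT 1 to WT 4. Its log2 fold change of 4.50 (SE 1.08, edgeR adjusted p = 0.0336) rests on few WT counts, and the omission of any library but WT 4 ended the call (adjusted p between 0.0613 and 0.209). It is the neighbour of Il12rb2, 46639 bases away, and a marker of ILC3, whose list was higher in the same libraries. Its share from such cells was not tested. Il21r and Il15ra, receptor genes of IL-21 and IL-15, had log2 fold changes of 1.28 (edgeR adjusted p = 6.61e-03) and 0.91 (0.0303), and for Il15ra the omission of WT 1, WT 2, KO 1 or KO 2 ended the call (0.0784 to 0.146). The chain that fell was Il10rb, of the IL-10 receptor, at 135 ± 19.8 CPM in KO and 182 ± 18.5 CPM in WT (-0.43, edgeR adjusted p = 0.0382), named because it was the 1 call in that direction. Its call also depended on every library but WT 4 (highest adjusted p without one = 0.187), and was lost with library-size scaling, without the sex term and with the replicate number as a block. Il6st, the gp130 gene that pairs with Il27ra, was not called, with 15.3 and 18.4 CPM in KO 1 and KO 2, against 43.4, 44.4, 23.3 and 27.1 CPM in WT 1 to WT 4 (edgeR adjusted p = 0.0583); it was chosen for mention after its values were seen.

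Of 20 kinases, adaptors and STATs, all tested, 1 rose and 2 fell (15%, beside 13.7% of all tested genes), with a median log2 fold change of -0.11. The 3 calls became 1 without WT 3, KO 1 or KO 2, and DESeq2 called 2 higher and 3 lower. Jak1, a kinase of the interferon gamma receptor and of many cytokine receptors, fell the most. It had 1298 and 1128.5 CPM in KO 1 and KO 2, against 2812, 2735, 2646 and 2477 CPM in WT 1 to WT 4. Both KO libraries lay below all WT libraries by a wide margin (log2 fold change -1.14, SE 0.08, edgeR adjusted p = 4.35e-04), and the call held under all 17 alternatives. Traf6, an adaptor of IL-18 signalling, had 75.1 and 82.6 CPM in KO 1 and KO 2, against 102 to 134 CPM in WT (-0.55, edgeR adjusted p = 0.0296), and lost its call under 6 alternatives, among them the omission of WT 1, WT 3, KO 1 or KO 2 (0.0620 to 0.133). The IL-12 receptor kinases Jak2 and Tyk2 were not called (log2 fold change 0.28 and -0.27, edgeR adjusted p = 0.137 and 0.138), nor was Myd88 (0.19, 0.292).

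Of 13 negative regulators, 4 rose and 0 fell by edgeR (30.8%, beside 13.7% of all tested genes). At an unadjusted p under 0.05, 1 was lower, and 0 were lower with DESeq2 or limma voom (median log2 fold change 0.02). Cish, an inhibitor of cytokine signalling induced by STAT5, had 144 and 226 CPM in KO 1 and KO 2, against 24.8 to 29.7 CPM in WT (log2 fold change 2.71, SE 0.15, edgeR adjusted p = 1.59e-04). Socs2 and Socs1, of the same family, had log2 fold changes of 1.26 (edgeR adjusted p = 4.28e-03) and 0.89 (0.01996). Usp18, which restrains the type I interferon receptor, had a log2 fold change of 0.82 (edgeR adjusted p = 7.74e-03). Socs1 lost its call without WT 1 (0.0621) or KO 2 (0.171), and Usp18 without KO 2 (0.0730), which left 2 calls in the list. Socs3, of the same family, was the 1 lower at an unadjusted p and was not called, with 15.5 and 23.8 CPM in KO 1 and KO 2, against 26.4, 24.4, 58.4 and 145 CPM in WT 1 to WT 4 (log2 fold change -1.64, edgeR adjusted p = 0.154). Both of its KO libraries were below all WT libraries. Cish and Socs2 kept theirs under all 17 alternatives.

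Of 20 tested genes that IL-12 and IL-18 are known to induce, or that act with STAT4, 3 rose and 1 fell (20%, beside 13.7% of all tested genes), with a median log2 fold change of -0.10. The count of 4 was unstable: it became 2 without WT 2 or WT 3 and 9 without WT 4, 8 with the replicate number as a block, 7 with no expression filter, and 7 with DESeq2 (4 higher and 3 lower). Il2ra, the high-affinity IL-2 receptor chain, had 82.2 and 297 CPM in KO 1 and KO 2, against 19.0 to 27.7 CPM in WT (log2 fold change 2.82, or 1.93 without KO 2 and 3.53 without KO 1). Gzmb, the granzyme B gene, had 2022 and 1543 CPM in KO 1 and KO 2, against 462 to 559 CPM in WT (1.83), and Furin, a protease gene, 189 and 370.15 CPM in KO 1 and KO 2, against 137 to 162 CPM in WT (0.89). The edgeR adjusted p of these 3 genes were 1.96e-03, 3.40e-04 and 0.0217. Furin lost its call without WT 2 (0.0532), WT 3 (0.0544) or KO 2 (0.157, log2 fold change 0.43). Runx3, a transcription factor gene of cytotoxic lymphocytes, had 191 and 281 CPM in KO 1 and KO 2, against 328 to 356 CPM in WT (-0.54, edgeR adjusted p = 0.0382). Its call was lost without WT 1, WT 2, WT 3 or KO 1, without the sex term and with library-size scaling, and without KO 1 its log2 fold change was -0.29.

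In the list of interferon gamma response genes, which many cell types induce, 12 of 28 (42.9%) rose and 0 fell by edgeR. Of all tested genes, 8.13% rose and 5.58% fell. The median log2 fold change of the list was 0.57. At an unadjusted p under 0.05, 21 were higher and 0 lower, and DESeq2 called 17 and limma voom 15, with 0 lower in each. Ciita, the regulator of class II genes, had 19.8 and 16.9 CPM in KO 1 and KO 2, against 1.98 to 2.99 CPM in WT (2.94, edgeR adjusted p = 6.69e-04). The GTPase genes Tgtp1, Gbp6 and Irgm2 had log2 fold changes of 1.85, 1.76 and 1.39 (edgeR adjusted p = 2.84e-03, 5.05e-04 and 0.0285). Gbp6 had 68.4 and 73.9 CPM in KO 1 and KO 2, against 18.9 to 23.4 CPM in WT. Irgm2 lost its call with robust estimation (0.0888) and without WT 3, KO 1 or KO 2 (0.0646 to 0.201). Tgtp and Gbp genes have close copies, and how their reads were divided is not known. Dendritic cells express Ciita, and 4 of the 9 dendritic markers were called higher in KO by edgeR, namely Xcr1 and the class II genes H2-Aa, H2-Ab1 and Cd74, which B cells also express. H2-Aa had 106 and 107 CPM in KO 1 and KO 2, against 7.73 to 32.4 CPM in WT. Itgax, Zbtb46, Flt3, Clec9a and Siglech were not called, and Itgax, the most abundant marker of the list, had 829 and 524 CPM in KO 1 and KO 2, against 814 to 887 CPM in WT. The part of such cells in this list was not tested. Without KO 1 or without KO 2, 7 of its genes were called.

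**Figure D5:**
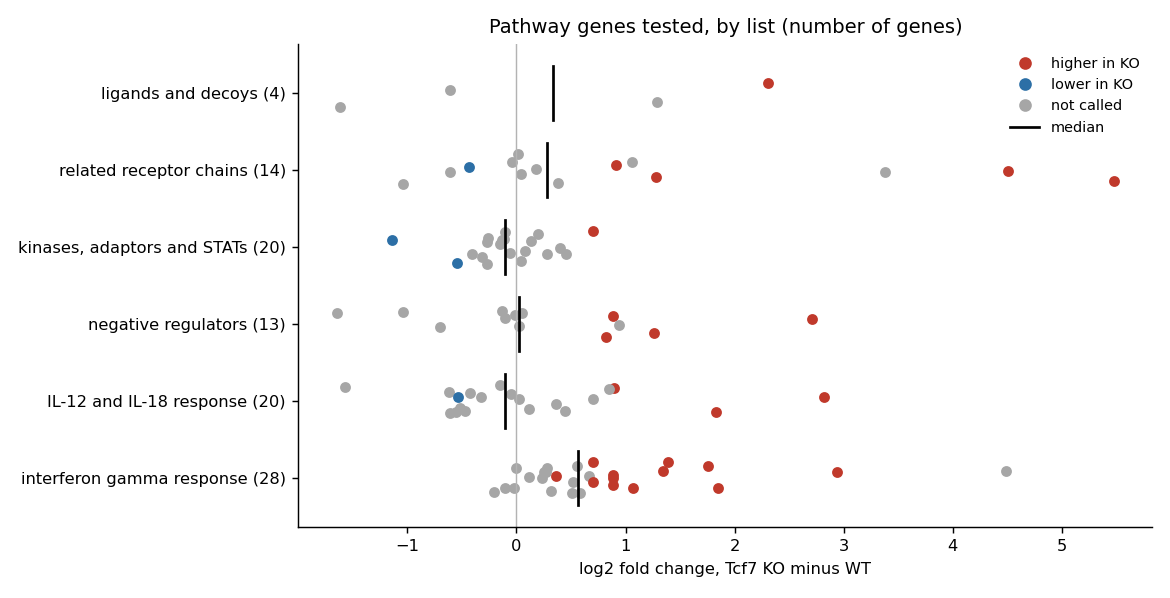
Log2 fold change, Tcf7 KO minus WT (x axis), of each tested gene in the 6 pathway lists (y axis, number of tested genes in brackets; vertical scatter within a list has no meaning), red where called higher and blue where called lower in KO by edgeR. The interferon gamma response list has its median at 0.57 and no lower call, and the IL-12 and IL-18 response list has its median at -0.10.

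Genes whose log2 CPM ran most like those of the changed genes over the 6 libraries were found among genes with a mean of at least 2 log2 CPM. For Il12rb1 these were Tmem268 and Mxi1 (Pearson r = 0.999 and 0.998), for Ifngr2 Sdf2l1 and Camk4 (0.9998 and 0.996), and for Stat4 Atp6v1e1 and Arhgef18 (0.995 and 0.992). For the other members they were Nde1 and Gdf11 (Il12rb2, 0.977 and 0.972), Smarcc2 and Nhlrc2 (Il18r1, 0.990 and 0.987), Kif13b and Gm16702 (Il18rap, 0.990 and 0.989), Tbk1 and Zfp346 (Il27ra, both 0.990) and Kdm4c and Zfp874a (Ifngr1, 0.992 and 0.988). With 6 libraries in 2 genotypes and so many genes to choose from, such values describe these libraries only.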

How the data were processed

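RNA-seq was measured in 6 libraries of sorted thymic NK cells, 2 Tcf7 KO and 4 WT, each from 1 mouse. Per the labels' protocols, the authors amplified cDNA with a SMART-Seq v4 kit for low input, which keeps no strand, and read paired ends. The deposited values are raw counts per Entrez gene; per the submitters' processing notes, featureCounts and mm10 were used, while the sources used here name no aligner or version. Reads of overlapping genes cannot be told apart by strand, and amplified reads are not independent molecules. The 6 files of single samples held the same counts as the joint table, with 0 columns of other samples. Gene lengths of the deposited table served only for levels per kilobase.

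Symbols and positions came from RefSeq GRCm38.p6, the build of mm10, where 25275 of 26332 IDs matched. After filterByExpr and TMM scaling, 13652 genes were fitted in edgeR 4.0.16 under R 4.3.3 (glmQLFit, glmQLFTest) on genotype plus the labelled sex, with Benjamini-Hochberg adjustment and a threshold of 0.05. The SE is the log2 fold change divided by the root of F, and 95% intervals use 3 residual and 4.50 prior degrees of freedom. Within-sex differences use a pseudocount of 1. Total counts were 16418910 to 31155303, and 3 counts, taken as the floor, were 0.0989 to 0.180 CPM. No pair of replicates agreed within counting noise (lowest chi-square over its degrees of freedom 8.86), so none was merged. Alternatives were other scalings, no filter or a minimum of 5 CPM in 2 libraries, the model without sex, a block on the replicate number, limma voom (limma 3.58.1), DESeq2 1.42.0, robust quasi-likelihood, each library left out in turn, and WT 3 and WT 4 left out together. With 1 KO library left out, the other is assumed to vary like the WT libraries. The scripts were tested on simulated counts. All 8 members are named. From each pathway list up to 4 called genes with the largest change were named, filled with the most expressed to 2, together with the nearest tested gene on each side of a member and the 2 genes most correlated with it; Il10rb, Il6st, Socs3, Jak2, Tyk2, Myd88, cell type markers and genes too low to test were named outside this rule. Some genes that the rule names are not reported here. The members and lists were chosen with earlier results of these data known.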

Additional observations from a re-analysis of the deposited data

Results flagged for a closer look

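Ifngr2 in WT 4 stood apart from the other WT libraries, at 2.38 CPM against 0.162 to 0.494 CPM. Its gap to the nearest library was 0.85 of the WT range. The same was seen for Arrdc2, the nearest gene above Il12rb1 on chromosome 8, in WT 3, at 14.9 CPM against 8.84 to 9.72 CPM, with a gap of 0.857 of the range; Arrdc2 had 16.3 and 15.003 CPM in KO 1 and KO 2 and was not called between the genotypes (log2 fold change 0.57, edgeR adjusted p = 0.136). WT groups of 42 genes were examined in this way, and chance marks about 1 in 20.

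Il18r1 differed from WT in opposite directions in the sexes. The male KO library was below both male WT libraries (735 against 813 and 863 CPM), and the female KO library was above both female WT libraries (911 against 792 and 630.4 CPM). The female minus male difference of the KO effect was 0.55 on the scale of log2(CPM + 1). In an edgeR fit with a genotype by sex term, an addition chosen after seeing the data, the interaction was 0.55 (unadjusted p = 0.0466, adjusted p = 0.496). In that fit 0 of 13652 genes (0%) were called and 1368 had an unadjusted p under 0.05; no other tool was run. With 1 KO library of each sex, sex and mouse cannot be told apart.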

How the results depend on the processing

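Under the 17 alternatives, Il12rb1 kept its direction and call in all, Ifngr2 in 16 and Stat4 in 13. The count of called members was 3, and 1 to 4 with 1 library left out (1 without KO 1, 2 without WT 1, WT 3 or KO 2, and 4, with Il18rap, without WT 4). The count over all genes was 1872, 2955 with DESeq2, and 934 to 1908 with 1 library left out (1002 without WT 1, 1022 without WT 3, 1015 without KO 1, 934 without KO 2). The replicate number as a block gave 1341 calls and kept the 3 called members. Same-numbered libraries correlated at 0.128 (KO 1 and WT 1) and 0.000486 (KO 2 and WT 2) in their deviations from the group means. The deviations of 2 KO libraries mirror each other, so these values cannot tell whether same-numbered libraries share more than a number. Genes not called changed sign in places. Ifngr1 was -0.063 with the replicate block, -0.062 without WT 3 and WT 4, and -0.077 to 0.13 with 1 library left out. Il18r1 was -0.20 to 0.35, Il12rb2 -0.43 to 0.013, Ifng -1.38 to 0.041 and Ifnar1 -0.15 to 0.058 with 1 library left out. Ifng was 0.056 with the replicate block and 0.058 without WT 3 and WT 4, and Ifnar1 was 0.045 with library-size scaling. The cause was not tested. Depth limits Ifngr2 and Il23r in WT.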
